A study of Mus musculus with 8 samples.

Results

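The Krüppel-like factor (Klf) genes encode zinc finger transcription factors, and 10 of them, Klf2, Klf3, Klf4, Klf5, Klf6, Klf7, Klf9, Klf10, Klf13 and Klf15, were followed here in mouse lenses with and without Mettl3. The members were taken by gene symbol: all 10 were found among the 43432 Ensembl gene IDs of the count table, and all 10 were among the 16241 genes that passed the filter on low counts. RNA was measured by sequencing of polyadenylated RNA from lenses at embryonic day 14.5, in 4 libraries of genotype control and 4 of genotype Mettl3 CKO, in which the gene for the enzyme that methylates adenosines of mRNA to N6-methyladenosine (m6A) is conditionally deleted. Both groups have replicates a to d. The labels give no strain, allele or Cre driver and do not say what the controls carry or how many lenses or animals a library holds, so a p-value reflects only how these 8 libraries vary, in part perhaps for technical reasons.

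Klf proteins bind GC boxes and CACCC boxes in DNA through zinc fingers at their C-terminal end, as the related Sp proteins do, while their N-terminal parts differ and recruit different cofactors. Klf2, Klf4, Klf5, Klf6 and Klf7 belong to a group known mainly as activators that work with acetyltransferases, Klf3 to a group of repressors that bind CtBP, and Klf9, Klf10 and Klf13 to a group that binds the Sin3A corepressor, with Klf15 outside these groups. In the mouse eye, Klf4 and Klf5 are known for their roles in the corneal and conjunctival epithelium, and Klf2 is known from endothelium, where blood flow induces it.

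Among the members Klf6 fell in CKO lenses and Klf13 rose, while 8 did not pass the test. Klf6, the most abundant member per length, was 0.706 of its control level, and Klf13 was 1.49-fold higher. The lowest CKO value of Klf15 was above its highest control value, but the gene missed the threshold. A gene was called changed at an adjusted p under 0.05 in edgeR's quasi-likelihood test with Benjamini-Hochberg adjustment over all 16241 genes. By that rule 10.5% of all tested genes were called, 6.50% as higher and 4.01% as lower, so 2 calls among 10 members are no result about the family. The median log2 fold change of the 10 members was 0.00, against -0.03 over all tested genes.

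The promoters of the 2 members that changed, Klf6 and Klf13, and of Klf2 and Klf4, which had the same pairs of highest and lowest libraries, are shown here because Klf proteins bind the same kinds of boxes that these promoters hold. The sequences are from RefSeq on GRCm38.p6, the assembly behind mm10, run 5′ to 3′ on the strand of the gene and end at or before the annotated gene start. They lie at chr13:5861239-5861481 (plus strand) for Klf6, chr7:63938916-63939165 (minus strand) for Klf13, chr8:72318812-72319032 (plus strand) for Klf2 and chr4:55532476-55532725 (minus strand) for Klf4. Capitals mark the GC box GGGCGG, the CACCC box CACCC and the palindrome CTANNNNTAG, a form of the site of MEF2 proteins, each searched on both strands.
Klf6: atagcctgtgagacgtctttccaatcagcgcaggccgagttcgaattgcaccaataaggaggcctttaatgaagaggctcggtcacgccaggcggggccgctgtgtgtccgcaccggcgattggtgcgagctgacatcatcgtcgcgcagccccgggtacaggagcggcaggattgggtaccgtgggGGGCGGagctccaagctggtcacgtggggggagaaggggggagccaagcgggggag
Klf13: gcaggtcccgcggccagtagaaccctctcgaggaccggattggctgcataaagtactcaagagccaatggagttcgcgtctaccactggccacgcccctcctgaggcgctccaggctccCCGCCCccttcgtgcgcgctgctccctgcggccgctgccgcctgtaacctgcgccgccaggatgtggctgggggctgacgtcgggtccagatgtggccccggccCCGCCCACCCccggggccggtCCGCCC
Klf2: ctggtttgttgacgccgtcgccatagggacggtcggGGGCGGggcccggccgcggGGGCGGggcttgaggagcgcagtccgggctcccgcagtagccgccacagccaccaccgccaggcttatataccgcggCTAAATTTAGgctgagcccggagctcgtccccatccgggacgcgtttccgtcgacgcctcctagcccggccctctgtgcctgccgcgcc
Klf4: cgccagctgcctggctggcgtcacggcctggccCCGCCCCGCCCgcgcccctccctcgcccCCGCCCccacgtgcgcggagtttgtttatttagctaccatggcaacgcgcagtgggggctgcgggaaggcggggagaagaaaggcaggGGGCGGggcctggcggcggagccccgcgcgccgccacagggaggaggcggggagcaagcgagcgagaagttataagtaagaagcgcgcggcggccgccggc

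RefSeq promoter windows of 300 bases, from 250 before the gene start to 50 after it, were matched for 8 of the 10 members. The GC box was in 7 of these 8 windows and in 35.7% of all 32851 promoter windows of the table. The CACCC box was in 6 of 8, against 57.5% of all windows, and TATAAA in 0 of 8, against 13.6%. The MEF2-type palindrome was in 1 of 8, that of Klf2, against 3.69% of all windows. In the Klf13 window the CACCC box shares a base with 1 of the 3 GC boxes, and in that of Klf2 it lies outside the stretch printed, before the RefSeq gene start but past the GENCODE start, at which the printed stretch ends. Klf4 and Klf6 have GC boxes with no CACCC box in the window, 4 in Klf4 and 1 in Klf6. The members' windows are rich in G and C, between 58.3% in Klf7 and 76.7% in Klf3. The content of all windows was not taken, so the shares above are not matched for it. These matches are letters and not measured sites. Klf5 and Klf10 were not matched.

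Mettl3 itself was lower in every CKO library. On the counts-per-million (CPM) scale, with libraries scaled by the TMM method, it had 28.4, 25.4, 23.8 and 21.4 in controls a to d and 13.4, 15.9, 8.11 and 12.2 in CKO a to d, a log2 fold change of -1.02 (SE 0.15, edgeR adjusted p = 0.00259). The libraries held between 19110170 and 56098211 gene counts. Lens identity was plain: the 12 fiber markers together took between 129372 and 202446 CPM, with Cryaa alone, named after its values were seen, at 95766 CPM ± 12513 (SD, n = 4) in controls. Across all genes 1055 rose and 651 fell, so 61.8% of calls were higher. With library totals in place of TMM scaling 88.9% were higher, and the median of all genes moved up by 0.15 on the log2 scale, while with length and GC trends removed 44.8% were higher.

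**Figure D1:**
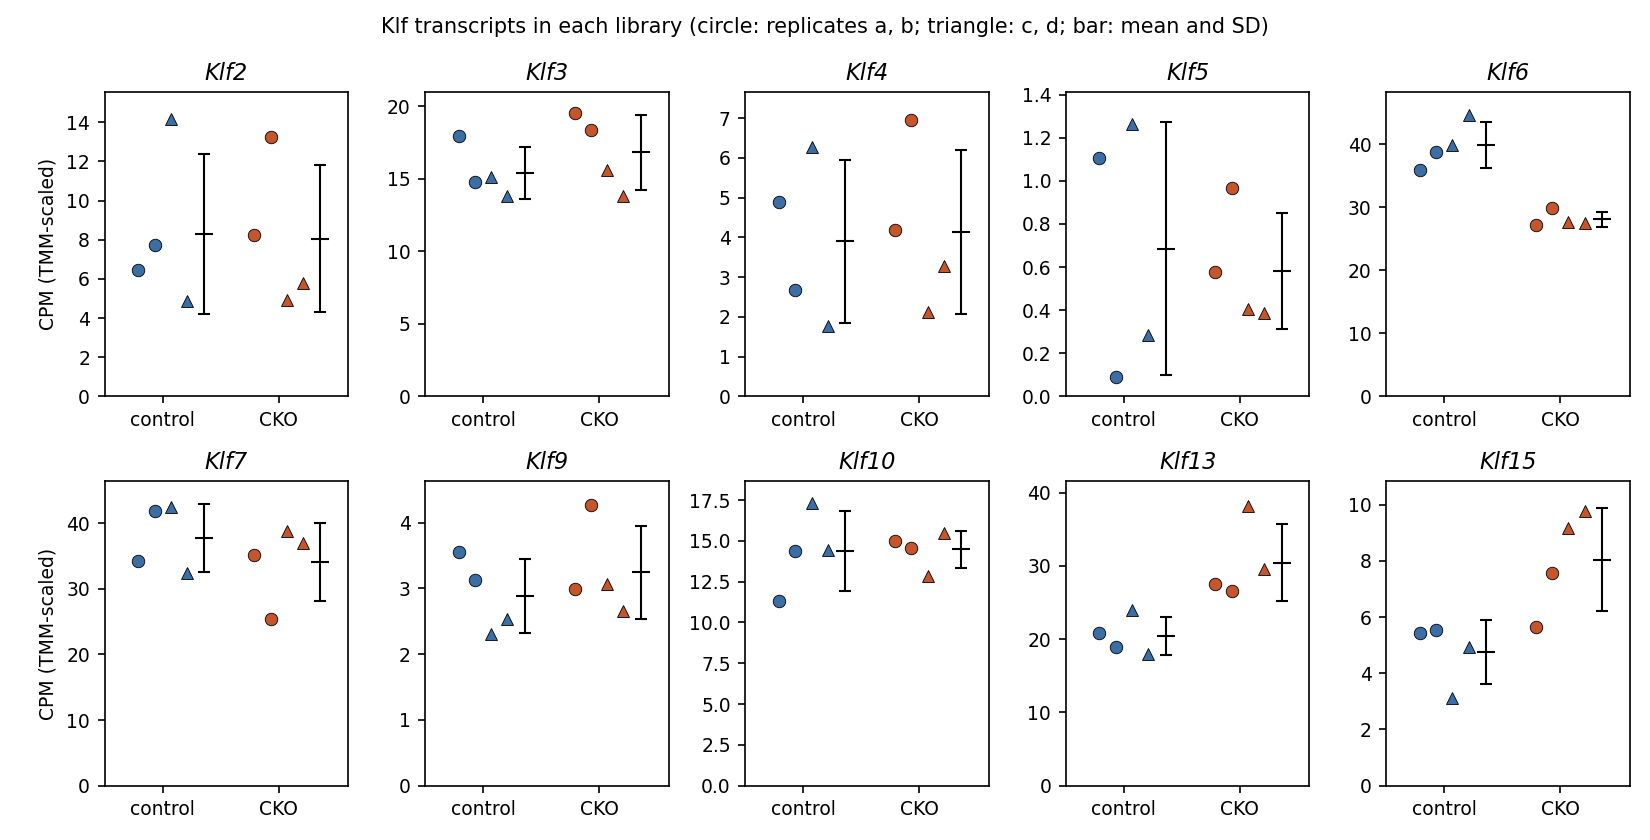
CPM (scaled by TMM, linear axes from 0) of the 10 Klf members in the 4 control and 4 CKO libraries, with the mean and SD beside the points. Circles are replicates a and b and triangles replicates c and d. Klf6, Klf13 and Klf15 are the members whose genotypes do not overlap.

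Klf6 encodes a widely expressed activator that is known to induce the cell cycle inhibitor gene Cdkn1a. It lies on mm10 chromosome 13 (5861482 to 5870394, plus strand, ENSMUSG00000000078) and overlaps no other annotated gene. Klf6 stood at 35.9, 38.7, 40.0 and 44.7 CPM in controls a to d and at 27.2, 29.9, 27.7 and 27.5 CPM in CKO a to d. Every CKO library was below every control library, and the CKO values lay closer together than the controls. The means were 39.8 CPM ± 3.65 in controls and 28.1 CPM ± 1.21 in the CKO group (SD, n = 4 each). The log2 fold change was -0.50 (SE 0.10, 95% interval -0.72 to -0.29, edgeR adjusted p = 0.0107). Within replicates a and b it was -0.41 (edgeR adjusted p = 0.0731) and within c and d -0.58 (edgeR adjusted p = 0.0618), and the difference between these effects had an unadjusted p of 0.229 (edgeR interaction test). The call ended without control d (edgeR adjusted p = 0.0543) or without CKO d (edgeR adjusted p = 0.0535).

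Klf13 encodes a factor of the Sin3A-binding group that is known as an activator of Ccl5 in T cells. It lies on chromosome 7 (63886351 to 63938915, minus strand, ENSMUSG00000052040). Klf13 stood at 20.9, 18.9, 23.9 and 17.9 CPM in controls a to d and at 27.5, 26.5, 38.2 and 29.6 CPM in CKO a to d. All CKO libraries were above all controls, with CKO c the highest. The means were 20.4 CPM ± 2.65 and 30.5 CPM ± 5.30 (SD, n = 4 each). The log2 fold change was 0.57 (SE 0.13, 95% interval 0.28 to 0.86, edgeR adjusted p = 0.0211), with 0.42 within replicates a and b and 0.74 within c and d (edgeR adjusted p = 0.0843 and 0.0772). Without control b, control d or CKO c the call ended (edgeR adjusted p 0.0611 to 0.0843). No source used here gives the strand setting of the counting. The annotated genes on the opposite strand within Klf13, E030018B13Rik and Gm27252, share no exonic base with it and had means under 0.1 CPM in each genotype.

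Klf15, known as a glucocorticoid-induced regulator of metabolic genes in liver and muscle, had the largest fitted change of any member, with a wide error. It lies on chromosome 6 (90462576 to 90475238, plus strand, ENSMUSG00000030087). Klf15 stood at 5.42, 5.55, 3.11 and 4.94 CPM in controls a to d and at 5.66, 7.57, 9.18 and 9.76 CPM in CKO a to d. The genotypes did not overlap, but CKO a was only just above the controls a and b. The means were 4.76 CPM ± 1.13 and 8.04 CPM ± 1.84 (SD, n = 4 each), and the log2 fold change was 0.76 (SE 0.24, edgeR adjusted p = 0.0653). Within replicates a and b the value was 0.25 (edgeR adjusted p = 0.587) and within c and d 1.27 (edgeR adjusted p = 0.0525). The difference between those effects had an unadjusted p of 0.0256 and an adjusted p of 0.240 in edgeR's interaction test, in which 16.4% of all genes had an unadjusted p under 0.05 and 0 passed after adjustment. DESeq2 called Klf15 (DESeq2 adjusted p = 0.0215), as did edgeR without CKO a (edgeR adjusted p = 0.0489).

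Klf6, Klf13 and Klf15 were the 3 members whose genotypes did not overlap, against 16.3% of all tested genes, with 2 of them higher, against 8.96%, and 1 lower, against 7.38%. The libraries also differed in their cell content. The summed level of 12 macrophage markers went from 46.1 to 68.7 CPM in controls and from 68.8 to 150.1 CPM in CKO libraries. Of these markers 4 rose, against 6.50% of all tested genes. They were the complement genes C1qa, C1qb and C1qc and the chemokine receptor gene Cx3cr1, with log2 values between 0.89 and 1.12. DESeq2 called 8, all higher, where it called 1414 of 14835 genes higher. Leaving out single libraries ended the edgeR call for C1qb and Cx3cr1 in 6 of 8 cases (both without control a, b or d or CKO a or b, and C1qb without CKO d, Cx3cr1 without CKO c) and for C1qa without control b or d. The calls of C1qa and C1qb also ended with a replicate block and, with no set term, those of C1qb, C1qc and Cx3cr1. Within replicates c and d alone all 4 calls ended. C1qa had a log2 fold change of 1.57 within a and b and of 0.60 within c and d. The macrophage sum was highest in CKO b and a, Klf13 in CKO c and Klf15 in CKO d. The fiber marker sum was lowest in CKO c and d, at 129372 and 136808 CPM, against 164840 to 202446 CPM in controls, and those were the libraries with the highest Klf13 and Klf15. In CKO a and b the sum was 179286 and 165178 CPM, within the control range. In CKO a and b Klf13 was at 27.5 and 26.5 CPM and Klf15 at 5.66 and 7.57 CPM. Their highest control values were 23.9 and 5.55 CPM. Of the 12 fiber markers 0 had a log2 fold change above 0, the median was -0.21, and 1, the membrane protein gene Lim2, fell (-0.57). Of 9 lens epithelium markers the gap junction gene Gja1 rose (0.54), and Wnt7b (-0.81), Npnt (-0.75), Itga6 (-0.55) and Pdgfra (-0.48) fell. Over all tested genes 6.50% rose and 4.01% fell. Pdgfra was also the 1 of 11 periocular mesenchyme markers that fell. With 1 library left out, the call ended for Lim2 in all cases but control c, for Pdgfra in all but control c and CKO b, and for Gja1 without control a, b or d or CKO a or d. It ended for Npnt without control d or CKO a and for Itga6 without control d. With a replicate block the calls of Lim2, Pdgfra, Gja1 and Itga6 ended, and with library totals those of Lim2, Pdgfra, Npnt and Itga6. Within replicates c and d alone the calls of Lim2, Gja1, Wnt7b, Npnt, Itga6 and Pdgfra all ended. In edgeR none of 11 retina, 6 tested pigment cell and 8 erythroid markers passed, with 0, 4 and 0 at an unadjusted p under 0.05, and DESeq2 called 3 pigment markers. The part of cell content in these Klf values was not tested. In such bulk libraries, fewer cells of a type and less RNA per cell cannot be told apart.

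Of the other activator-group members, Klf7, a gene known from axon outgrowth and sensory neurons, was close to Klf6 in CPM in controls (means of 37.7 and 39.8) and above it in CKO lenses (34.1 and 28.1). Klf7 stood at 34.2, 41.8, 42.5 and 32.3 CPM in controls a to d and at 35.1, 25.4, 38.8 and 36.9 CPM in CKO a to d, and the genotypes overlapped, with CKO b the lowest. The log2 fold change was -0.15 (SE 0.14, edgeR adjusted p = 0.537). Among Klf7's overlapping annotations, Gm26649, which lies on the opposite strand and shares 3196 exonic bases with it, had no counted read in any library. The strand setting is not given, so how reads in those shared bases were counted is not known.

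Klf2, which keeps endothelium quiescent, stood at 6.46, 7.71, 14.2 and 4.89 CPM in controls a to d and at 8.23, 13.2, 4.91 and 5.81 CPM in CKO a to d. Klf4, an epithelial barrier gene and reprogramming factor, stood at 4.89, 2.69, 6.28 and 1.77 CPM in controls a to d and at 4.20, 6.97, 2.12 and 3.29 CPM in CKO a to d. Both genes were highest in control c and CKO b and lowest in control d and CKO c, so each genotype held the extremes. The log2 fold changes were -0.12 for Klf2 (SE 0.42, edgeR adjusted p = 0.889) and -0.01 for Klf4 (SE 0.44, edgeR adjusted p = 0.989). Their 95% intervals ran from -1.10 to 0.85 and from -1.02 to 0.99, wide enough to hold larger changes than those of Klf6 and Klf13 in either direction. Within replicates a and b the values were 0.59 and 0.54, and within c and d -0.78 and -0.52, with unadjusted interaction p-values of 0.0719 and 0.221 (edgeR). Without control c alone Klf2 had a value of 0.41 and Klf4 of 0.58, neither of which passed (edgeR adjusted p = 0.192 and 0.196).

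The levels of Klf2 and Klf4 are given here beside a vessel marker list. The sum of 16 endothelium and pericyte markers was 457.2, 595.0, 948.8 and 416.8 CPM in controls a to d and 799.0, 1246.2, 379.5 and 483.4 CPM in CKO a to d. It was highest in CKO b and control c and lowest in CKO c and control d, which are the same libraries as for Klf2 and Klf4. The 3 highest libraries of Klf4, CKO b, control c and control a, were also the 3 highest for the sums of erythroid, of periocular mesenchyme and of surface ectoderm and corneal markers. Control a was sixth of 8 for vessel markers. The lens at this age lies within the hyaloid vessels, and the cadherin gene Cdh5, named after its values were seen (76.2 CPM ± 35.7 in controls and 89.7 CPM ± 54.8 in the CKO group) was well above Klf2 in CPM. Of the 16 markers none passed in edgeR or DESeq2, 0 had an unadjusted p under 0.05 in edgeR, and their median log2 fold change was 0.14. Klf5, a proliferation gene of basal epithelia, was rare, at 1.11, 0.0881, 1.27 and 0.283 CPM in controls and 0.577, 0.967, 0.404 and 0.387 CPM in CKO a to d, or 2 to 52 counts. Its highest libraries, control c, control a and CKO b, were also the highest for the sum of 13 surface ectoderm and corneal markers, at 152.2, 156.8 and 132.9 CPM, while the other 5 libraries had between 21.8 and 45.6 CPM. These same 3 libraries were the highest for the erythroid and the periocular mesenchyme sums too, so the match is not particular to the epithelial list. The corneal keratin gene Krt12, named after its values were seen, was at 0 in 5 libraries and at most 0.219 CPM in the others, and Krt5, also named after its values were seen, reached 66.5 CPM in control c. None of the 12 tested markers of this list passed in edgeR or DESeq2, with 0 at an unadjusted p under 0.05 in edgeR and a median of -0.68. The log2 fold change of Klf5 was -0.33 (SE 0.70, edgeR adjusted p = 0.813). How much of Klf2, Klf4 and Klf5 came from non-lens cells was not tested.

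**Figure D2:**
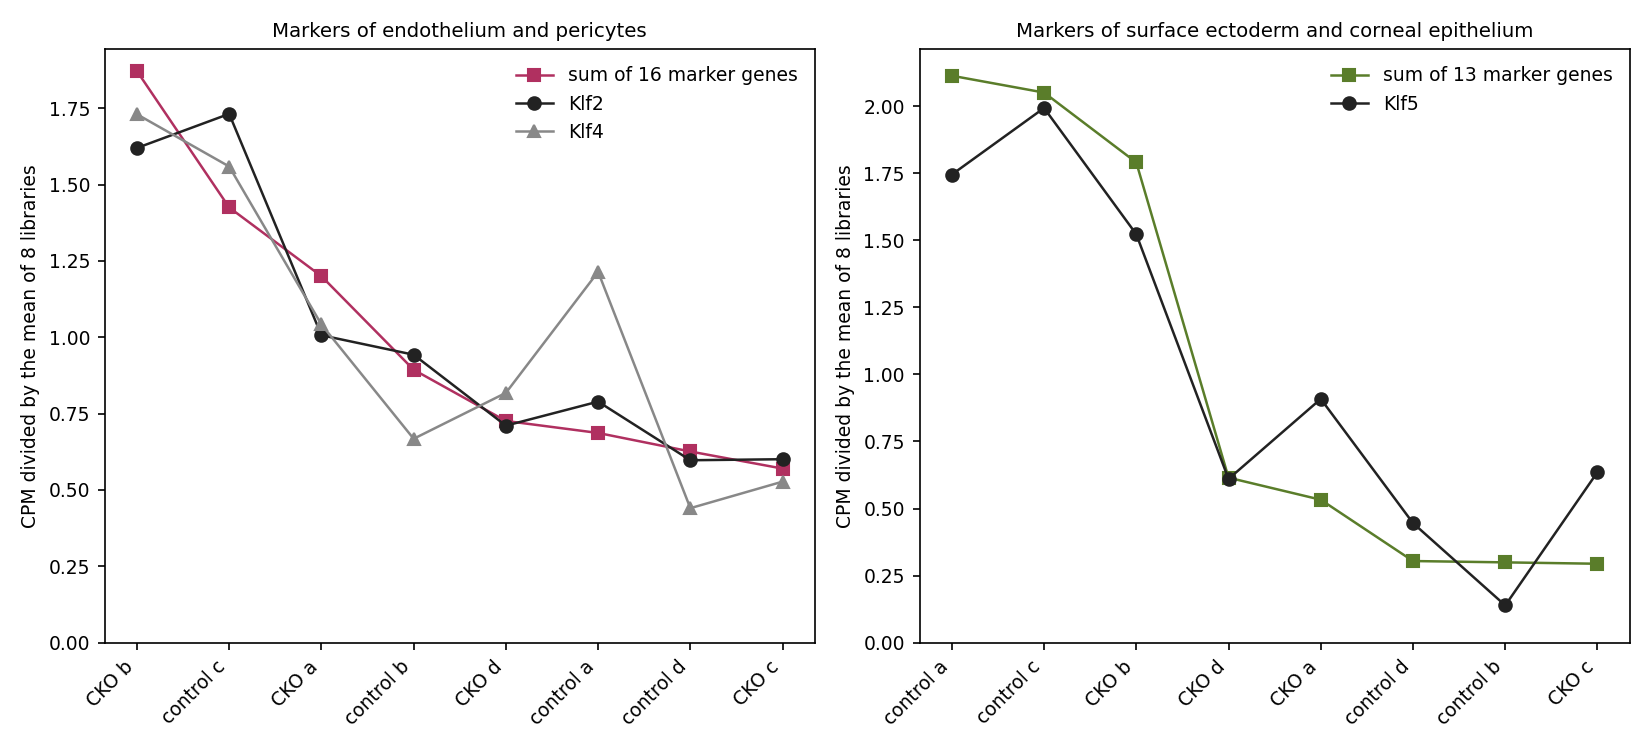
CPM of Klf2 and Klf4 with the sum of 16 endothelium and pericyte markers (left) and of Klf5 with the sum of 13 surface ectoderm and corneal markers (right), each divided by its mean over the 8 libraries, which are ordered by the marker sum. Klf2 and Klf4 are highest in CKO b and control c, and Klf5 in control a, control c and CKO b, the libraries with the highest marker sums. Control a, control c and CKO b are also the highest for erythroid and periocular mesenchyme markers, which are not drawn.

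Klf3, a repressor gene known from erythroid and fat cells, did not pass the test. It stood at 18.0, 14.8, 15.1 and 13.8 CPM in controls a to d and at 19.5, 18.4, 15.6 and 13.8 CPM in CKO a to d, and within each genotype replicate d was the lowest. The log2 fold change was 0.12 (SE 0.12, 95% interval -0.14 to 0.38, edgeR adjusted p = 0.581). Of the remaining Sin3A-group members, Klf10, a TGF-beta-inducible gene, stood at 11.3, 14.4, 17.3 and 14.5 CPM in controls and at 14.998, 14.6, 12.9 and 15.5 CPM in CKO a to d, a log2 fold change of 0.01 (SE 0.14, 95% interval -0.30 to 0.33, edgeR adjusted p = 0.959). Klf9, a gene induced by thyroid hormone and glucocorticoids, stood at 3.55, 3.13, 2.31 and 2.53 CPM in controls and at 2.99, 4.27, 3.07 and 2.65 CPM in CKO a to d, a log2 fold change of 0.18 (SE 0.21, edgeR adjusted p = 0.633). The genotypes overlapped for each of Klf3, Klf9 and Klf10. Gm20033, on the opposite strand of Klf3, shares 404 exonic bases with it and had means of 0.437 CPM (control) and 0.863 CPM (CKO). Reads in those shared bases cannot be told apart without strand.

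**Figure D3:**
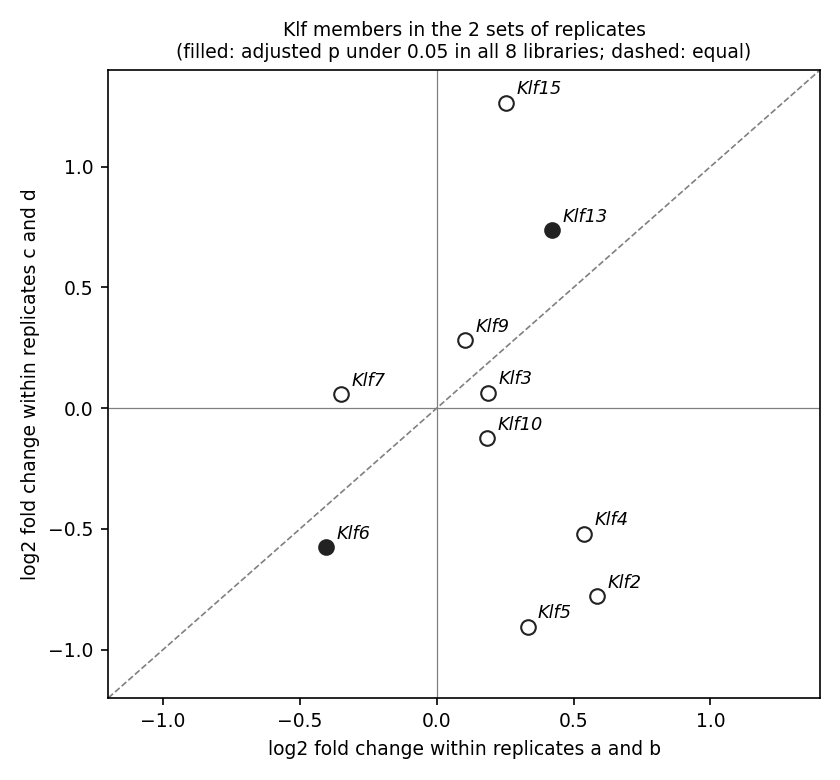
Log2 fold change of each Klf member, CKO over control, within replicates a and b (horizontal) against that within replicates c and d (vertical), with equality as a dashed line. Klf6 and Klf13, filled, lie in the quadrants of equal sign, while Klf2, Klf4, Klf5, Klf7 and Klf10 are above 0 on one axis and below 0 on the other.

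Per length of annotated exon the family was led by Klf6. In controls Klf6 had 9.07 CPM per kb ± 0.83 (SD, n = 4), percentile 71.7 among 14041 tested protein-coding genes, followed by Klf7 at 4.64 ± 0.64, Klf2 at 4.50 ± 2.21, Klf10 at 3.44 ± 0.58 and Klf13 at 2.71 ± 0.35 CPM per kb. The ranges of neighbours in this order overlapped from Klf7 to Klf13, whereas that of Klf6 was clear of Klf7. Klf15 at 1.70, Klf3 at 1.37, Klf4 at 1.28 and Klf9 at 0.60 CPM per kb came next, each range overlapping the next, and Klf5 was lowest at 0.13 CPM per kb. In CKO lenses Klf6 was still first at 6.40 CPM per kb ± 0.28, but its range overlapped that of Klf2. Klf13 had 4.04 CPM per kb ± 0.70 there, beside Klf7 at 4.19 ± 0.73.

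The summed level per length of all 10 members was 29.4 CPM per kb ± 3.53 in controls and 29.0 CPM per kb ± 1.89 in CKO lenses (SD, n = 4 each). Its make-up differed: Klf6 took 31.1% ± 4.90 of the sum in controls and 22.1% ± 0.524 in CKO lenses. The share of Klf13 was 9.22% ± 0.617 in controls and 14.1% ± 2.97 in CKO lenses, and that of Klf15 was 5.95% ± 1.82 and 9.996% ± 2.53. These shares are fixed by the same counts as the fold changes and are given as a description. Union exonic lengths from 1847 bases (Klf2) to 11243 bases (Klf3) set this scale, and any unused exon lowers a gene's value.

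**Figure D4:**
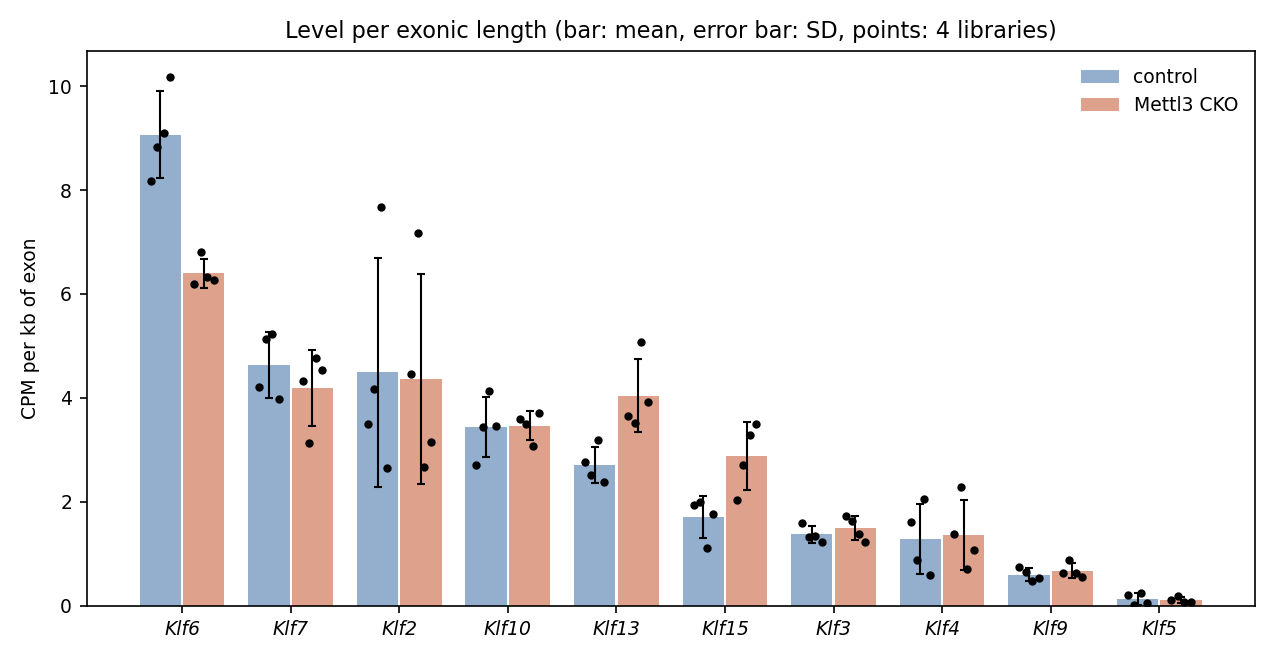
Level of each Klf member in CPM per kb of annotated exon, ordered by the control mean, in control and CKO lenses. Bars are means, error bars SD and points the 4 libraries of each genotype, on a linear axis from 0. Klf6 is the highest in each genotype, at 9.07 and 6.40 CPM per kb.

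The members' transcripts differed in base composition. The longest coding transcript of Klf6 had 42.4% G and C, against a median of 50.4% over the 14041 tested protein-coding genes, and that of Klf13 had 55.5%. GGACU, the commonest form of the m6A consensus (written GGACT in the DNA alphabet), occurred 8 times in the Klf6 transcript, or 1.89 times per kb, percentile 86.4 of these genes. Klf13 had 1.09 per kb and Klf15 0.40 per kb, against a median of 1.05 over the genes, and the other members ranged from 0.19 (Klf3) to 1.65 (Klf4). A match is no evidence of methylation, which was not measured in these libraries. Klf6 and Klf13 were called also with each library's trends on length and GC content removed.

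By the likeness of their profile over the 8 libraries, the genes nearest to Klf6 were Sqle, the squalene epoxidase gene of cholesterol synthesis, Hebp2 and Memo1. Their centred log2 CPM differed from that of Klf6 by a root mean square of 0.04, 0.06 and 0.07, where the median of 10591 genes of at least 5 CPM was 0.32. Their log2 fold changes were -0.51, -0.53 and -0.44. Klf6 was both the member with the highest level per length and the one with the smallest p. The same measure was taken for the other members after their values were seen. It gave Adgra2 and Notch4 (0.11 each), both known from endothelium, and then Tns1 (0.12) as nearest to Klf2. For Klf4 it gave Tnfaip2 (0.20), Trp53i11 (0.21) and Prkch (0.24). Zbtb25, Cdyl2 and 6330403K07Rik were nearest to Klf13 (0.08 each), and Pomgnt2 (0.11), Kifc5b (0.13) and Map10 (0.14) to Klf15. For the remaining members the first gene was Cdh23 for Klf3 (0.09), S100a10 for Klf5 (0.49), Tmem150a for Klf7 (0.08), Gtpbp6 for Klf9 (0.08) and Ginm1 for Klf10 (0.07).

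Of 7 other Klf genes 5 were tested, Klf14 and Klf17 being too rare. None passed in edgeR, where 2 had an unadjusted p under 0.05, and DESeq2 called 1, Klf16. Such unadjusted values were common: Egr2, at 0.0480 (edgeR), ranked 4229 by p among all 16241 tested genes. Klf16, a Sin3A-group gene, had 20.2 CPM ± 3.37 in controls and 26.7 CPM ± 2.64 in the CKO group (log2 fold change 0.42, SE 0.13, edgeR adjusted p = 0.0697) and passed without control a (edgeR adjusted p = 0.0415). Klf11, the closest relative of Klf10, had 9.14 CPM ± 1.12 and 12.9 CPM ± 3.80 (0.47, SE 0.18, edgeR adjusted p = 0.117). Klf1, the erythroid factor, was at means of 0.45 CPM and 0.55 CPM, and Klf8 and Klf12, which bind CtBP, had log2 fold changes of -0.04 and 0.00. Of 9 Sp genes 5 were tested and none passed in edgeR or DESeq2, with 1 at an unadjusted p under 0.05 in edgeR. The 3 with the smallest p were Sp3 (0.27, SE 0.10, edgeR adjusted p = 0.111), Sp1 (0.20, SE 0.09, edgeR adjusted p = 0.193) and Sp4 (0.21, SE 0.10, edgeR adjusted p = 0.233). Sp1 and Sp3, which compete with Klf proteins for GC boxes, were at 56.6 and 56.8 CPM in controls, above each of the 10 members in CPM. Per kb of exon Sp3 was still above Klf6 (11.5 and 9.07 CPM per kb in controls), but Sp1 was below it, at 6.85.

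**Figure D5:**
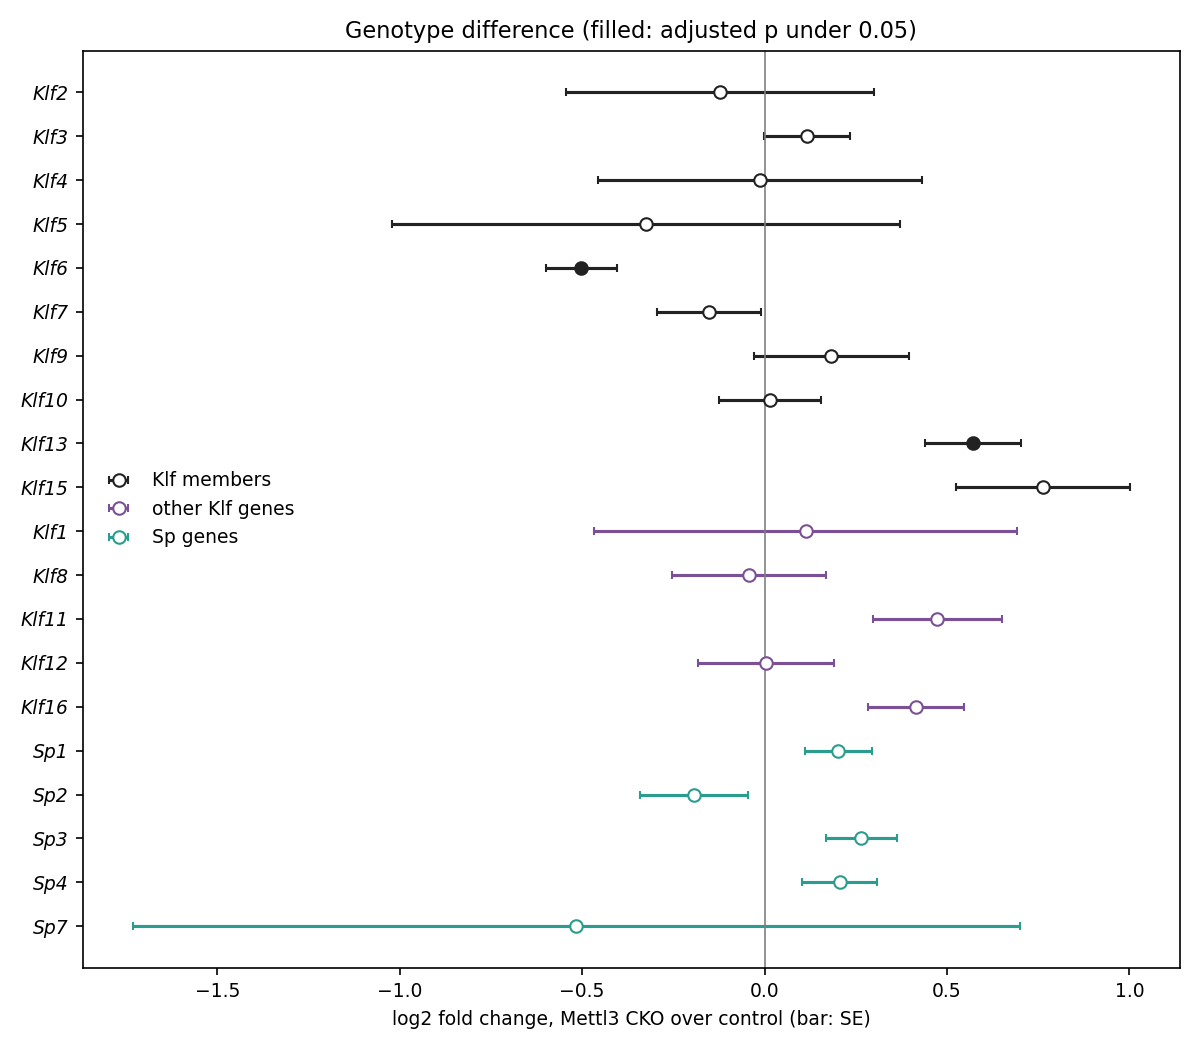
Log2 fold change of CKO over control with its SE for the 10 Klf members, 5 other Klf genes and 5 Sp genes that were tested in the edgeR fit of all 8 libraries. Filled points, Klf6 at -0.50 and Klf13 at 0.57, passed an adjusted p of 0.05.

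Of 15 genes for Klf cofactors and turnover, 1 fell and none rose (against 4.01% and 6.50% of all tested genes), with a median of 0.13. The gene that fell was Kat2b, an acetyltransferase gene of the kind that Klf activators recruit, from 37.8 CPM ± 6.43 to 25.3 CPM ± 5.29 (log2 fold change -0.58, SE 0.16, edgeR adjusted p = 0.0440), and its genotypes overlapped. Ctbp1, Ctbp2 and Sin3a, named for their roles after their values were seen, had log2 values of 0.13, 0.14 and 0.21 and did not pass. Of 17 genes upstream of Klf genes, 1 rose and 1 fell, near the share of 10.5% called over all tested genes. Foxo3, of the FoxO family that is known to act on Klf2 in lymphocytes, rose by 0.50 on the log2 scale (SE 0.11, edgeR adjusted p = 0.0211), and Clock, the circadian factor, fell by 0.41 (SE 0.09, edgeR adjusted p = 0.0211). Mapk7 (ERK5), which acts through MEF2 proteins on Klf2 and was likewise named after its values were seen, had a value of 0.38 (edgeR adjusted p = 0.0894) and passed without control a (edgeR adjusted p = 0.0186). The glucocorticoid receptor gene Nr3c1, named in the same way, had a value of 0.08 (edgeR adjusted p = 0.843). Leaving out single libraries ended the call for Kat2b in 6 of 8 cases (all but control c and CKO c), for Clock in 5 (control b, control d, CKO b, CKO c and CKO d) and for Foxo3 in 4 (control b, control d, CKO c and CKO d), with edgeR adjusted p up to 0.163, 0.0863 and 0.0824. With a replicate block the calls of all 3 ended, with library totals those of Kat2b and Clock, and with RLE scaling that of Kat2b.

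Among 18 genes described elsewhere as targets of Klf proteins, 17 were tested. Of these, 3 rose and none fell (against 6.50% and 4.01% of all tested genes), with a median of 0.08. They were the cyclin gene Ccne1, which Klf4 is known to repress (1.37, SE 0.14, edgeR adjusted p = 0.000565), Smad7, which Klf10 is known to repress (1.01, SE 0.15, edgeR adjusted p = 0.00281), and Cdkn1a, which Klf4 and Klf6 are known to induce (0.97, SE 0.16, edgeR adjusted p = 0.00498). Cdkn1a stood at 7.87, 8.59, 11.1 and 15.4 CPM in controls a to d and at 13.5, 20.7, 25.5 and 23.9 CPM in CKO a to d, so the means rose while those of Klf6 fell, and CKO a was below control d. The endothelial target genes Thbd, Nos3 and S1pr1, named after their values were seen, had log2 values of 0.02, 0.08 and 0.18 (edgeR adjusted p 0.853 to 0.983), beside that of Klf2. Klf2, Klf4, Klf6 and Klf10 are also known as immediate early genes. Of 18 immediate early genes, 16 were tested and none passed in edgeR, where 3 had an unadjusted p under 0.05, while DESeq2 called 1, Jund. The list had a median of -0.16 and sums between 214.7 and 264.4 CPM in controls and between 218.8 and 294.9 CPM in CKO libraries.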

How the data were processed

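Polyadenylated RNA of 8 mouse lens libraries was sequenced, 4 of each genotype. The authors deposited raw counts per Ensembl gene ID in a table. Per the submitters' processing notes CASAVA, HISAT2, featureCounts and build mm10 were used, with no versions, and no source used here gives the annotation release or strand setting. Of 43432 IDs, 42548 matched GENCODE M21, which gave symbols, positions and exonic lengths.

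Genes were kept with edgeR 4.0.16 (R 4.3.3) by filterByExpr (minimum count 10, total 15), leaving 16241, and scaled by TMM. A quasi-likelihood model with robust estimation held genotype and a set term, replicates a and b against c and d, whose records stand apart in the series; no label calls these batches. P-values were adjusted by Benjamini-Hochberg over all tested genes. CPM are TMM-scaled, and standard errors come from the fold change and its F statistic. The common biological coefficient of variation was 23.1%. The procedure was tested on simulated data.

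Named by rule were the 10 members, Mettl3, other Klf and Sp genes called or among the 3 smallest p-values, up to 4 called genes of each other list, and the 3 genes of at least 5 CPM nearest in profile to the member of highest level and to that of smallest p; other genes are marked as named after their values were seen. The members and lists were chosen with earlier results of these data known. The labels do not say whether libraries of the same letter are paired, and the main model does not pair them. Alternatives were other scalings and filters, no set term, a replicate block, DESeq2 1.42.0, removal of length and GC trends, each set alone and each library left out.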

Additional observations from a re-analysis of the deposited data

How the results depend on the processing

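Klf6 kept its direction under all 22 alternatives, with log2 fold changes from -0.58 to -0.35, and was called in 18; Klf13 kept its direction in all 22, from 0.42 to 0.74, and was called in 17. Klf3, Klf9 and Klf15 also kept their direction. Klf15 passed in 3 alternatives, and Klf5 was not tested under the filter of 1 CPM in 4 libraries. Mettl3 ranged from -1.13 to -0.89 with each library left out. For each value that moved, the cause was not tested.

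Across all genes 1706 were called, 665 with a replicate block and 981 with that block and length and GC trends removed. Within replicates a and b 1365 were called, and within c and d 858. With 1 library left out the count went from 503 (without control d) to 2553 (without control c). Leaving out control b gave 780, CKO c 846 and CKO d 651. Called Klf members went from 2 to 0 within each set alone and ranged from 0 to 3 with 1 library left out. In edgeR 3 members had an unadjusted p under 0.05 within each set alone. They were Klf6, Klf13 and Klf2 in replicates a and b, and Klf6, Klf13 and Klf15 in c and d. The share of all genes at that level within a set was not counted, so no excess can be read from this. In the main fit Egr2, with an unadjusted p of 0.0480 (edgeR), ranked 4229 by p among all 16241 tested genes. Unadjusted p-values under 0.05 were thus common, and the counts given for the gene lists are to be read against that rank. The replicate block changed no member's call. Deviations of same-lettered libraries from their genotype means had correlations of -0.20, 0.13, -0.42 and 0.46. Taken from the means of genotype and set, they were -0.09 for a and b and -0.32 for c and d. There the deviations of a and b mirror each other, as do those of c and d, so each pair has the same correlation by construction. Called genes of the cofactor, upstream, target and related lists went from 6 to 3 with the block, with and without length and GC trends, and ranged from 3 to 8 with 1 library left out. The genotype effect differed between sets for 0 genes, with 2662 at an unadjusted p under 0.05 (edgeR), and for 918 with no low-count filter, an alternative chosen after seeing the data.

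Log2 fold changes of members that were not called turned in sign as follows. For Klf2 the value was 0.0368 with library totals and 0.59 within replicates a and b, and -0.39 to 0.41 with 1 library left out. For Klf4 it was 0.00199 with RLE scaling, 0.14 with library totals, 0.0736 with no set term, 0.13 with the replicate block, 0.00693 in DESeq2, 0.0401 with the block and length and GC trends removed, 0.54 within replicates a and b, and -0.27 to 0.58 with 1 library left out. For Klf5 it was 0.0107 with the replicate block and 0.33 within replicates a and b, and -0.78 to 0.40 with 1 library left out. For Klf7 it was 0.000835 with library totals and 0.0592 within replicates c and d. For Klf10 it was -0.0266 with length and GC trends removed, -0.0239 with the block as well, -0.12 within replicates c and d, and -0.0859 to 0.10 with 1 library left out. Klf5 had 2 to 52 counts per library.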
